A study of Mus musculus with 24 samples.

Results

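Mouse protein-coding genes whose annotated body spans 800 kb or more were examined as a group for binding of the cardiac transcription factor MEF2C, for the linker histone H1.0 and for the heterochromatin mark H3K9me3. The members were taken from the RefSeq annotation of GRCm38.p6 (mm10) by length alone, on chromosomes 1 to 19 and X, and they numbered 98 of 21631 protein-coding genes. Of these, 93 lie on autosomes and 5 on X (Dmd, Il1rapl1, Il1rapl2, Tenm1 and Frmpd4). Their lengths ran from 802 kb to 2390 kb with a median of 1080 kb, and their merged bodies covered 112 Mb, or 4.31% of the autosomal span for the autosomal members. The 5 longest were Dmd, Ptprd, Cntnap2, Lsamp and Lrp1b. On chromosome 18 the predicted genes Gm37013, Gm38666 and Gm38667 overlap over 868 kb and enclose 55 protocadherin genes, so they are read as 1 locus.

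The cells were iMGT-Myh6-eGFP-MEF, a line of mouse embryonic fibroblasts in which 1 µg/mL doxycycline switches on Mef2c, Gata4 and Tbx5 (MGT) and which carries a Myh6-eGFP reporter. CUT&RUN, in which a nuclease tethered by an antibody releases the bound DNA for sequencing, was run with antibodies to MEF2C, H1.0 and H3K9me3. MEF2C was profiled 1 day after doxycycline in cells transfected beforehand with siJunb (n = 3), siH1f0 (n = 3) or siControl (n = 2). H1.0 and H3K9me3 were profiled in siControl cells at day 1 with doxycycline (n = 2 each) and in ground state cells, which were not reprogrammed (n = 2 each). Junb encodes a subunit of the AP-1 transcription factor and H1f0 encodes H1.0 itself. All MEF2C samples therefore carried the induced transgenes, and the antibody cannot separate transgenic from endogenous MEF2C. All samples come from 1 engineered line, and peak lists hold no RNA, so neither the fibroblast label nor the depth of either knockdown could be checked.

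Genes of this size are a peculiar class. Most of their length is intronic, many encode adhesion molecules, receptors and scaffolds used mainly by neurons, and they often sit in gene-poor, late-replicating chromatin. MEF2C is a MADS-box factor that activates muscle and neuronal genes from promoters and distal enhancers. H1.0 is a linker histone that accumulates in differentiated, slowly dividing cells and compacts nucleosome arrays, and H3K9me3 marks constitutive heterochromatin.

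Each sample was deposited as 1 list of peaks. The MEF2C lists held 11717 to 48997 peaks, the H1.0 lists 32912 to 722039 peaks covering 28.5 to 1109 Mb, and the H3K9me3 lists 24154 to 69311 peaks covering 65.7 to 363 Mb. Lists of 1 antibody therefore differed widely in length and cover, and each value was divided by the autosome-wide value of its own list. For MEF2C this gives a relative density (peaks per 100 kb in gene bodies over peaks per 100 kb of autosomes), and for H1.0 and H3K9me3 a relative share (percent of body bases under peaks over the percent for autosomes). A value of 1 is the autosome-wide level. The names of the lists fall into 2 naming series, which are followed below wherever a contrast is drawn. For each antibody the lists of the second series covered more sequence than those of the first. The MEF2C lists covered 13.4 to 22.5 Mb in the first series and 56.4 to 89.8 Mb in the second. For H1.0 the cover was 28.5 and 92.9 Mb against 911 and 1109 Mb, and for H3K9me3 it was 65.7 and 109 Mb against 315 and 363 Mb.

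MEF2C peaks were sparse in the long genes in every library. Long genes held 0.0907, 0.317 and 0.142 peaks per 100 kb in siJunb libraries 1, 2 and 3, against autosome-wide densities of 0.472, 1.99 and 1.05. They held 0.153, 0.286 and 0.162 peaks per 100 kb in siH1f0 libraries 1, 2 and 3, against 0.923, 1.44 and 0.717 over the autosomes. In siControl libraries 1 and 2 they held 0.142 and 0.248 peaks per 100 kb, against 0.599 and 1.11 over the autosomes. Every library thus had between 0.136 and 0.238 of its autosome-wide density in these genes. The mean log2 ratio over the 8 libraries was -2.40, a 0.189-fold density, and the 2-sided exact permutation test over libraries gave p = 0.00781, the smallest that 8 libraries allow (Benjamini-Hochberg adjusted p = 0.0260 over 10 tests).

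Among neighbouring length classes the largest step was at the far end. Genes of 800 kb or longer stood at 0.136 to 0.238 of the autosomal level, against 0.713 to 0.881 for the 254 genes of 400 to 800 kb. Genes of 200 to 400 kb stood at 1.17 to 1.36, those of 100 to 200 kb at 1.55 to 1.71, and those under 100 kb at 1.76 to 2.11. Set directly against genes of 400 to 800 kb, the long genes had a mean log2 ratio of -2.07, or a 0.238-fold density (exact permutation p = 0.00781, adjusted p = 0.0260), with each library between 0.191 and 0.276. The deficit was also present away from gene ends: with the 5 kb next to any annotated gene end left out on both sides, the relative density was 0.170 to 0.292. With the length limit set at 600 kb the mean log2 ratio to the autosomes was -1.69, and at 1 Mb it was -2.64. On X the density over the whole chromosome was itself 0.136 to 0.296 of the autosomal level, and the 5 members on X together had 0 to 4 peaks per library.

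**Figure D1:**
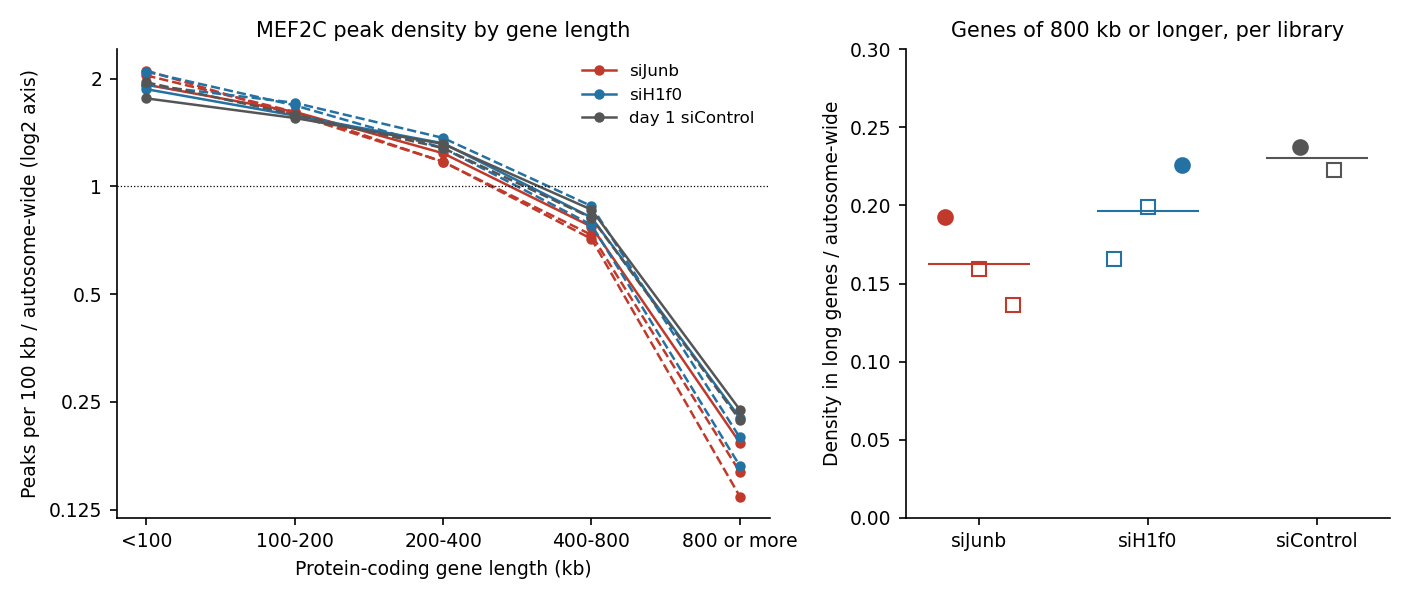
Left, MEF2C peaks per 100 kb of gene body relative to the autosome-wide density (log2 axis) in 5 classes of protein-coding gene length (x axis, kb), with 1 line for each of the 8 libraries; solid lines are lists of the first naming series and dashed lines those of the second. Right, the relative density of genes of 800 kb or longer in each library (filled circles, first naming series; open squares, second) with the group mean as a bar; siJunb libraries lie between 0.136 and 0.192, siH1f0 between 0.166 and 0.226, and siControl at 0.238 and 0.223.

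The members were far from uniform. A peak was found in all 8 libraries in 24 members, in 1 to 7 libraries in 55, and in no library in 19. This split is given for the members alone, without a comparison to shorter genes. The median over members of the mean relative density was 0.0530, and 60 members lay below 0.1. In contrast, 6 members exceeded the autosomal level: Auts2 (mean relative density 1.77), Magi2 (1.42), Hdac9 (1.33), Celf2 (1.14), Dlgap1 (1.10) and Wwox (1.09). Nrg1 (0.909), Pde4d (0.782), Etl4 (0.698) and Sox5 (0.687) followed. These 10 genes carried 902 of the 1732 peaks counted in long genes over the 8 lists, or 52.1%.

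Magi2, on chromosome 5 (19219387 to 20704792), encodes a membrane-associated scaffold of synapses and epithelial junctions. It held 11, 52 and 26 peaks in siJunb libraries 1 to 3, 12, 34 and 12 in siH1f0 libraries, and 13 and 21 in siControl libraries. Its relative density was above 1 in 7 of the 8 libraries, the exception being siH1f0 library 1 at 0.875. Auts2, also on chromosome 5 (131437333 to 132543220), encodes a chromatin-associated regulator of neuronal development. It held 13, 40 and 24 peaks in siJunb libraries, 17, 20 and 16 in siH1f0 libraries, and 10 and 16 in siControl libraries, which placed it above the autosomal level in all 8. Hdac9, a class IIa histone deacetylase that binds MEF2 proteins and represses their targets, held 5, 10 and 4 peaks in siJunb libraries, 12, 17 and 12 in siH1f0 libraries, and 11 and 15 in siControl libraries. Its relative density was 1.22, 0.579 and 0.440 in siJunb libraries, against 2.11 and 1.55 in siControl libraries, and these groups did not overlap.

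**Figure D2:**
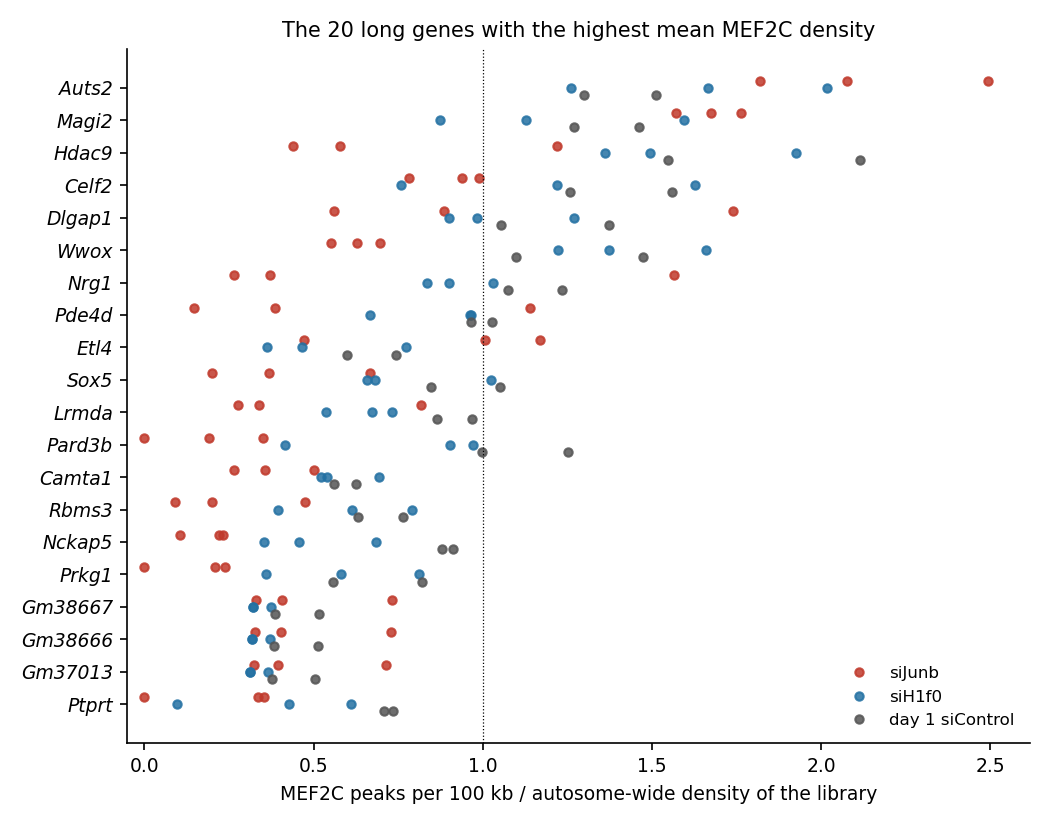
MEF2C relative density (x axis, peaks per 100 kb over the autosome-wide density of the same library) of the 20 long genes with the highest mean, 1 point per library, coloured by transfection; the dotted line is the autosome-wide level. Auts2 has all 8 points above 1, whereas points of Hdac9 and Wwox under siJunb lie left of those under siControl.

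MEF2C peaks rarely lay over an annotated start of a long gene. Start windows (250 bases before to 50 after a RefSeq start) were listed for 77 of the 98 members, 128 windows in all. Between 3 and 10 of the 77 had a MEF2C peak over a start, or 3.90% to 13.0% by library, against 9.47% to 32.5% of all 17274 genes with a window. The mean log2 ratio was -1.52, a 0.348-fold share (exact permutation over 8 libraries, p = 0.00781, adjusted p = 0.0260). Against genes of 400 to 800 kb with a window, the mean log2 ratio was -0.797. In 2 members, Camta1 and Hdac9, a start lay under a peak in all 8 libraries, which is 2.60% of 77, against 3.89% of all genes with a window. Celf2 and Nckap5 reached 5 libraries, and 67 of the 77 had none in any library (87.0%, against 56.5% of all genes and 68.0% of genes of 400 to 800 kb with a window). The start windows of Camta1 and Hdac9 are printed because they were the ones that all 8 lists held. Capitals mark the only match, on either strand, to TGANTCA, the pattern used here for the AP-1 motif. The pattern leaves the middle base (N) open, and the match has a T there. Whether JUNB-containing dimers bind this form was not tested.

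Camta1, chr4:151861719-151862018, minus strand: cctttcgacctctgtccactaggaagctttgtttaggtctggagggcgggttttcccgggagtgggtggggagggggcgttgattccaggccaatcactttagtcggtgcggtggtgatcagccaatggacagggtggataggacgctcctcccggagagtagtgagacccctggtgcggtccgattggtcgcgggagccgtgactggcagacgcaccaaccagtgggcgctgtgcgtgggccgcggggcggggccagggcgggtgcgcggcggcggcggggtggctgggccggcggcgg

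Hdac9, chr12:34528840-34529139, minus strand: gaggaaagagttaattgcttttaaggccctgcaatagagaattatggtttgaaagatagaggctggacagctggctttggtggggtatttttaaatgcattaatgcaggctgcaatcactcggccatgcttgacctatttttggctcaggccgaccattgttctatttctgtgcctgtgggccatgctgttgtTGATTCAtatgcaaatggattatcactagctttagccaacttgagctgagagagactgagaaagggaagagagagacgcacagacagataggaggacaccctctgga

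Camta1 encodes a calmodulin-binding transcription activator, and its window lies at the upper end of the gene body, with 68.3% G+C and 28 CpG dinucleotides. The Hdac9 window lies inside the gene body, at an internal start, with 45.3% G+C and 3 CpG dinucleotides. The AP-1 pattern, with any middle base, was found in 9 of 128 member windows (7.03%), against 7.04% of all 21045 windows. The MEF2 consensus, also on both strands, was found in 2 of 128 (1.56%), against 2.61% of all windows. Neither printed window holds the MEF2 consensus. A match is a match of letters and does not show a bound site.

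Most peaks of long genes lay more than 5 kb from any annotated gene end, as did most of their length. Of member peaks, 8.82% to 15.1% by library fell within 5 kb of an annotated gene end, where 5.99% of member length lies, against 39.8% to 46.5% of autosomal peaks on 23.6% of autosomal length. In genes of 400 to 800 kb the share was similar to that of the members, 10.6% to 13.8% of peaks on 8.86% of length. After merging the peaks of all 8 lists, long genes held 761 regions, of which 30 (3.94%) were present in all 8 libraries and 473 (62.2%) in 1. Elsewhere 5.60% of 76441 regions were present in all 8 and 56.4% in 1. The 30 regions lay in 17 members, and 5 of them were within 5 kb of a gene end. The strongest by mean rank of signal within the lists was the Hdac9 region chr12:34515194-34534074 (mean percentile 99.3), which covers the printed start window. It was followed by regions in Lrmda (chr14:22647602-22652490), Auts2 (chr5:131809880-131817587), Magi2 (chr5:20445804-20450232) and Wwox (chr8:115331319-115337623). The first 4 of these lay under no H3K9me3 peak in any of the 4 lists, whereas 70.2% of the Wwox region lay under H3K9me3 in the list with the highest cover.

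Within Auts2 the peaks were unevenly placed. The gene was divided at base 132290275, the lower end of the long H3K9me3 stretch in the second day 1 siControl list; this boundary was chosen after the map had been seen. The upper 253 kb was covered by H3K9me3 over 31.0% and 95.5% in day 1 siControl lists 1 and 2, and over 18.9% and 90.7% in ground state lists. The lower 853 kb was covered over 0.494% and 3.07% at day 1, and over 0.319% and 4.61% in the ground state. The upper portion held 1, 2 and 2 MEF2C peaks in siJunb libraries, 0, 0 and 1 in siH1f0 libraries, and 1 and 0 in siControl libraries. The lower portion held 12, 38 and 22 peaks in siJunb libraries, 17, 20 and 15 in siH1f0 libraries, and 9 and 16 in siControl libraries.

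Sdk1, which encodes the homophilic synaptic adhesion molecule sidekick 1, was covered by H3K9me3 far more than Magi2. H3K9me3 covered 77.9% and 98.8% of Sdk1 in day 1 siControl lists and 65.6% and 98.6% in ground state lists, against 2.12% and 4.99%, and 1.95% and 6.85%, of Magi2. Sdk1 held 1, 8 and 7 MEF2C peaks in siJunb libraries, 0, 0 and 5 in siH1f0 libraries, and 1 and 0 in siControl libraries. Its mean relative density was 0.276, below the 1.42 of Magi2 but above the median over members of 0.0530. Only siJunb had a peak in Sdk1 in each of its libraries, but its values overlapped those of siH1f0. The relative density was 0.218, 0.413 and 0.687 in siJunb libraries, and the highest was 0.716 in siH1f0 library 3.

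**Figure D3:**
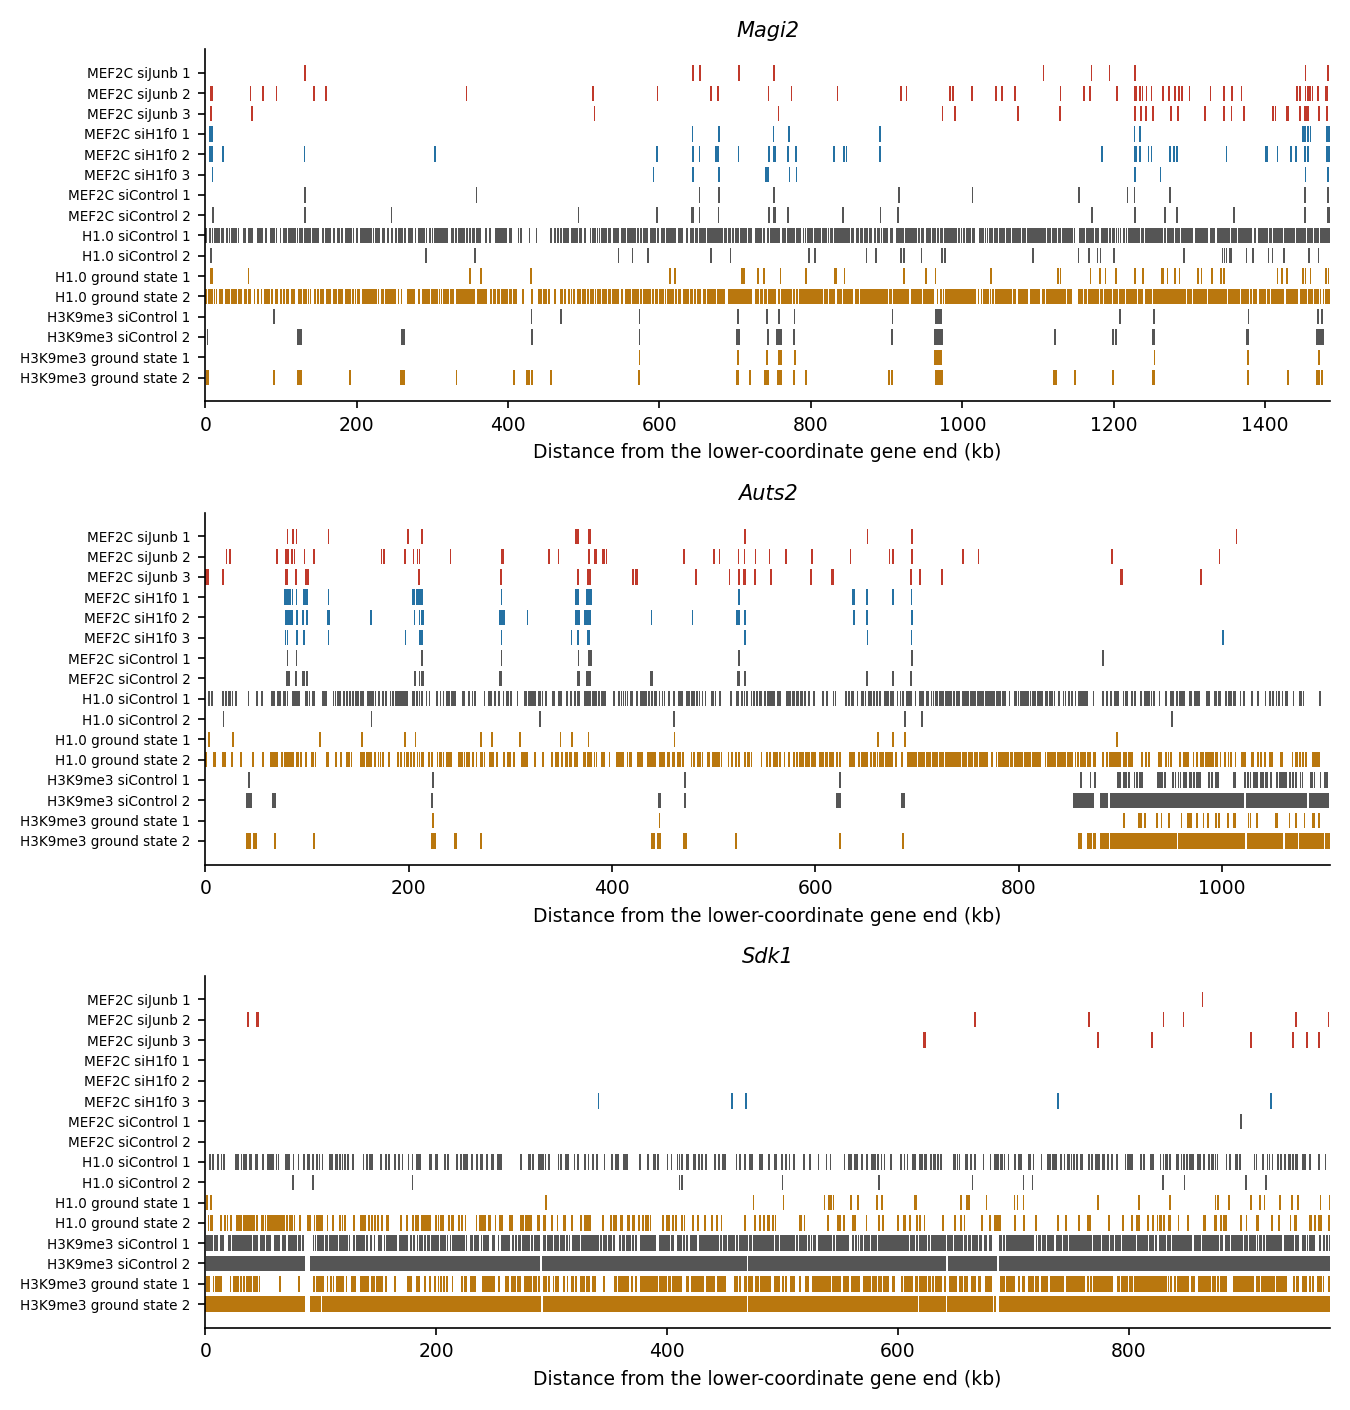
Intervals in the 16 lists along Magi2, Auts2 and Sdk1 (x axis, distance in kb from the lower-coordinate end of the gene), 1 row per list; red, siJunb; blue, siH1f0; grey, day 1 siControl; ochre, ground state, with very short intervals drawn at a minimum width. Most MEF2C peaks of Auts2 sit in the portion with little H3K9me3, and H3K9me3 fills Sdk1 almost from end to end in the second lists of both states.

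When members were sorted into 10 functional lists, MEF2C density differed widely between lists. The 10 members in the list of transcription and RNA regulators (Auts2, Hdac9, Celf2, Sox5, Camta1, Rbms3, Npas3, Rbfox1, Lrmda and Sugct) had a mean relative density of 0.675 over the 8 libraries, and 7 of the 10 had a peak in every library. That list as written also holds Lrmda and Sugct, and Sugct encodes a metabolic enzyme; without the pair the value was 0.716 for 8 members. Second messenger signalling (Pde4d, a cAMP phosphodiesterase, and Prkg1, a cGMP-dependent kinase) stood at 0.622, and the 6 members in no list, among them Dlgap1, Etl4 and Nckap5, at 0.666. Scaffold and vesicle proteins of the synapse stood at 0.338 over 6 members, with most of their peaks in Magi2. Receptor phosphatases, kinases and ligands (5 members) stood at 0.225, enzymes and transport (11) at 0.180, and cytoskeleton and junctions (8) at 0.146. Cadherins and protocadherins (5) stood at 0.0986, and neurotransmitter receptors and ion channels (10) at 0.0797.

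The largest list was the least occupied but for one. Synaptic and neuronal adhesion, with 27 members including neurexins, teneurins, contactins and Robo receptors for axon guidance, had a mean relative density of 0.0421; 1 member (Opcml) had a peak in all 8 libraries, 20 in some and 6 in none. The list of the dystrophin complex, basement membrane and matrix, of interest in cells driven towards muscle, was lowest, at 0.0217 over 8 members. Dmd, on X at 82814664 to 85205050, encodes dystrophin, which links actin to the muscle membrane. It held 1 peak, in siJunb library 2, and 0 in the other 7 libraries, where the autosome-wide densities would place 198 over the 8 lists. That number is too high for a gene on X, since density over the whole of X was 0.136 to 0.296 of the autosomal level. Dmd was not set against an expectation for X. Of its partners, Sgcd (delta-sarcoglycan) had 1 peak in siH1f0 libraries 1 and 2 and siControl library 2, Sgcz (zeta-sarcoglycan) had 1 peak in siJunb library 2, and Sntg1 (gamma-1 syntrophin) had none. Of the glypicans, Gpc6 had 1 or 2 peaks in every library and Gpc5 had 1 peak in siH1f0 library 3. Thsd7b and Adamtsl1, both with thrombospondin repeats, had none.

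The 19 members without a MEF2C peak in any list included guidance and adhesion genes (Dcc, Epha6, Lingo2, Cntn4, Cntnap5a and Csmd3), the receptor kinase Erbb4, the glutamate receptor Grm7, the calcium channel subunit Cacna2d3 and the protocadherin Pcdh9. Others were Spag16, Sntg1, Thsd7b, Dpyd, Agbl4, Dab1, Adamtsl1, Agbl1 and Ctnna2. Length separated members weakly: across the 98, Spearman's rho between length and mean relative density was -0.15. This is a description over genes that share the same libraries.

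Knockdown of Junb was compared with siControl next. The relative density of long genes was 0.192, 0.159 and 0.136 in siJunb libraries (0.163 ± 0.028, SD, n = 3), against 0.238 and 0.223 in siControl libraries (0.230 ± 0.011, SD, n = 2). The groups did not overlap, and the log2 difference was -0.52, or 0.700-fold. The exact permutation test gave p = 0.2, the smallest p that 3 against 2 libraries allow, so this design cannot reach 0.05 (adjusted p = 0.333). Without Magi2 and Auts2, the members with the most peaks, the log2 difference was -0.75 (exact permutation p = 0.2). Within the naming series the difference was -0.31 in the first, with 1 library a side, and -0.60 in the second, with 2 siJunb libraries and 1 siControl library. After each list was trimmed to the length of the shortest, siJunb libraries stood at 0.192, 0.141 and 0.133, against 0.217 and 0.246 in siControl libraries. Genes of 400 to 800 kb were also lower under siJunb without overlap, at 0.771, 0.732 and 0.713, against 0.861 and 0.816 in siControl libraries. Relative to that class, long genes averaged 0.219 in siJunb and 0.274 in siControl libraries.

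Knockdown of H1f0 gave a smaller difference. The relative density was 0.166, 0.199 and 0.226 in siH1f0 libraries (0.197 ± 0.030, SD, n = 3), against 0.238 and 0.223 in siControl libraries, and the groups overlapped. The log2 difference was -0.24 (exact permutation p = 0.4, adjusted p = 0.5), and it was -0.07 and -0.29 within the first and second naming series. The siJunb libraries differed from the siH1f0 libraries by -0.28 on the log2 scale, with overlapping values (exact permutation p = 0.2 where 0.1 is the smallest possible, adjusted p = 0.333), and by -0.23 and -0.30 within the series. The siJunb and siH1f0 contrasts share the same siControl libraries.

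Gene by gene, the siJunb libraries lay below both siControl libraries in 23 of the 77 members with a peak in any of these 5 lists (29.9%). The same separation was found in 7.88% of all protein-coding genes with a peak and in 23.1% of genes of 400 to 800 kb. Genes of 400 to 800 kb are the nearer in length, and the share of members was close to theirs. In the other direction, 6 members were higher in every siJunb library (7.79%, against 5.87% of all genes and 6.48% of genes of 400 to 800 kb): Anks1b, Asic2, Auts2, Ctnna3, Magi2 and Sdk1. The pooled difference was thus not shared by every member, and Auts2 and Magi2, with the most peaks, were among those that ran against it.

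Pard3b, a paralog of the polarity gene Pard3, had the largest such difference. It held 0, 7 and 2 peaks in siJunb libraries, against 6 and 14 in siControl libraries, a mean relative density of 0.181 ± 0.176 (SD, n = 3) against 1.13 ± 0.179 (SD, n = 2) and a log2 difference of -2.37 with a pseudocount of 0.1. In siH1f0 libraries it held 9, 13 and 3 peaks. Nckap5 held 1, 4 and 1 peaks in siJunb libraries, against 5 and 9 in siControl libraries (log2 difference -1.84). Prkg1 held 0, 5 and 3 in siJunb libraries, against 4 and 11 in siControl libraries (-1.83), and Sugct 0, 4 and 1 against 4 and 4 (-1.83). Anks1b, a scaffold of the postsynaptic density, ran the other way with 3, 15 and 8 peaks in siJunb libraries, against 0 and 4 in siControl libraries (1.86), and 0, 5 and 0 in siH1f0 libraries. The counts behind these differences are small, and in Pard3b, Prkg1 and Sugct the 0 came from siJunb library 1, which had the shortest list.

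Under siH1f0, 13 of 68 members lay below both siControl libraries (19.1%, against 5.02% of all genes and 11.5% of genes of 400 to 800 kb), and 1, Erc2, lay above both (1.47%, against 4.79% of all genes and 5.5% of genes of 400 to 800 kb). The 3 overlapping genes of the protocadherin locus count separately among the 13. The count was 23 without siH1f0 library 3 (36.5%, against 7.96% of all genes and 18.4% of genes of 400 to 800 kb). It was 22 without siControl library 1 (34.4%, against 20.5% of all genes and 29.4% of genes of 400 to 800 kb). Without siControl library 2 it was 30 (45.5%, against 26.1% and 35.6%), so the background shares rose as well when a siControl library was left out. Ptprt, a receptor tyrosine phosphatase, showed the largest difference, with 1, 7 and 5 peaks in siH1f0 libraries, against 5 and 9 in siControl libraries, and a log2 difference of -0.97. Sugct (-0.85), Nckap5 (-0.77), Pcdh15 (-0.68) and Macrod2 (-0.62) followed. Between the knockdowns, 13 of 77 members were lower in every siJunb than in every siH1f0 library (16.9%, against 6.14% of all genes and 18.2% of genes of 400 to 800 kb), and 3 were higher (3.90%, against 2.77% of all genes and 4.21% of genes of 400 to 800 kb). The count of 13 was 21 without siJunb library 1 (27.3%, against 11.1% of all genes and 32.9% of genes of 400 to 800 kb). Those higher under siJunb were Anks1b (log2 difference 2.22), Ctnna3 and Pcdh15, and the largest differences in the other direction were in Pard3b (-1.80), Immp2l (-1.65), Prkg1 (-1.59) and Cadm2 (-1.55). Cadm2, a synaptic cell adhesion molecule, had no peak in any siJunb library, against 2, 3 and 1 peaks in siH1f0 libraries and 1 and 3 in siControl libraries.

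At the level of regions, 114 merged regions of long genes were held by both siControl libraries. Of these, 28 (24.6%) were held by no siJunb library, against 14.1% of all such regions, and 3 (2.63%) by no siH1f0 library, against 1.78% of all. Without siControl library 1 these counts were 140 for siJunb and 49 for siH1f0, and without siControl library 2 they were 59 and 35. The siJunb count was 44 without siJunb library 2, and the siH1f0 count was 15 without siH1f0 library 2. Leaving out a siControl library changes the starting set to the regions of the other siControl library, so those counts are not parts of the 114. Starting counts and shares of all regions are not given here for these alternatives, so they cannot be compared with the percentages above. Regions gained were scarce: 1 of 456 regions absent from both siControl libraries was held by all siJunb libraries (0.219%, against 0.401% of all), in Gpc6, and 1 by all siH1f0 libraries (0.219%, against 0.701%), in Auts2. The strongest of the 28 lay in Cadm2 (chr16:66920238-66923939), Gpc6 (chr14:117518575-117521054), Cdh18 (chr15:23168624-23170795), Dlgap1 (chr17:70002570-70006611), Immp2l (chr12:41083178-41087230) and Pard3b (chr1:61991456-61993190). Each of these 6 was present in all 3 siH1f0 libraries as well as both siControl libraries.

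H1.0 also covered less of the long genes than of the autosomes in each of its 4 lists. At day 1 it covered 24.5% and 0.433% of long-gene bases in siControl lists 1 and 2, against 36.0% and 1.15% of autosomal bases. In the ground state it covered 1.61% and 39.6% of long-gene bases in lists 1 and 2, against 3.74% and 43.4% of autosomal bases. The relative shares were therefore 0.681 and 0.377 at day 1, and 0.431 and 0.913 in ground state lists 1 and 2. The mean log2 ratio was -0.83, or 0.564-fold (exact permutation p = 0.125, the smallest that 4 lists allow, adjusted p = 0.313). Lists trimmed to the same covered length gave 0.260 and 0.377 at day 1, and 0.301 and 0.379 in the ground state.

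The direction of the H1.0 difference between states could not be fixed from these lists. Day 1 differed from the ground state by -0.31 in the log2 relative share (exact permutation p = 0.667 where 0.333 is the smallest possible), and by -0.19 and -0.42 within the first and second naming series. It was 0.12 without day 1 list 2 and 0.23 without ground state list 2. In single genes, 3 of 98 members lay lower in both day 1 lists than in both ground state lists (3.06%, against 5.1% of all genes and 5.51% of genes of 400 to 800 kb): Dpp10, Thsd7b and Sgcd. None lay higher, against 8.64% of all genes and 10.6% of genes of 400 to 800 kb. Sgcd had relative shares of 1.19 and 0.830 at day 1, against 1.59 and 1.40 in the ground state.

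Members differed widely in H1.0. The highest mean relative shares were in Sox5 (2.23), a SoxD factor of chondrogenesis, Asic2 (1.97), an acid-sensing ion channel, Camta1 (1.96), Etl4 (1.53) and Nckap5 (1.52). These means run over lists of very different cover: Sox5 stood at 4.45 in ground state list 1 and 0.708 in ground state list 2, and Camta1 at 3.83 and 0.739. The lowest were in Pcdh9 (0.0508), Nrg3 (0.141), Ptprd (0.151), Dab1 (0.167) and Gpc5 (0.170). In 4 members (Celf2, Dlgap1, Etl4 and Asic2) the share exceeded the autosomal level in all 4 lists, and in 53 it fell short in all 4. The same counts for shorter genes are not given here, so they do not set the members apart. Across the 98 members, Spearman's rho between the mean relative share of H1.0 and the mean relative density of MEF2C was 0.56, a description over genes that share libraries, list lengths and base composition.

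H3K9me3 was spread over the long genes in a different manner. At day 1 it covered 5.43% and 23.3% of long-gene bases in siControl lists 1 and 2, against 4.30% and 14.2% of autosomal bases. In the ground state it covered 2.51% and 17.7% of long-gene bases, against 2.60% and 12.3% of autosomal bases. The relative shares were 1.26 and 1.64 at day 1, and 0.964 and 1.44 in the ground state, with a mean log2 ratio of 0.38 (exact permutation p = 0.25, adjusted p = 0.357). The sign depended on the summary: lists trimmed to the same covered length gave a mean log2 ratio of -0.19, and the median over members gave -0.65. The pooled excess was unevenly spread over members, with 16 above the autosomal level in all 4 lists, 47 below it in all 4 and 35 mixed. This split is not given here for shorter genes.

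Sdk1 had the highest mean relative share, 14.6, followed by Cdh13 (11.0), Dpp6 (7.67), Thsd7b (4.98) and Dab1 (4.48). Cdh13 encodes T-cadherin, which is anchored by a lipid in place of a transmembrane domain, and it was covered over 58.5% and 95.8% at day 1, and over 40.8% and 96.6% in the ground state. Dpp6, an auxiliary subunit of Kv4 potassium channels, was covered over 37.7% and 83.4% at day 1, and over 24.6% and 81.8% in the ground state. The longest single interval in Cdh13 spanned 403 kb (chr8:118053470-118456115) in day 1 siControl list 2, of which 316 kb lay in the gene, and that in Sdk1 spanned 332 kb (chr5:141929091-142260873). In the first lists of both states the longest in Sdk1 were 27.1 kb at day 1 and 28.1 kb in the ground state, with 77.9% and 65.6% of the gene covered in those lists. The other members above the autosomal level in all 4 lists included Auts2, Etl4, Ptprt, Macrod2, Tenm3, Nrxn3, Sntg1 and the 3 genes of the protocadherin locus. At the other end, Npas3, a neuronal transcription factor of the bHLH-PAS family, had no H3K9me3 in any list, and Pcdh9, Adamtsl1, Nrg1 and Il1rapl1 had the next lowest shares.

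**Figure D4:**
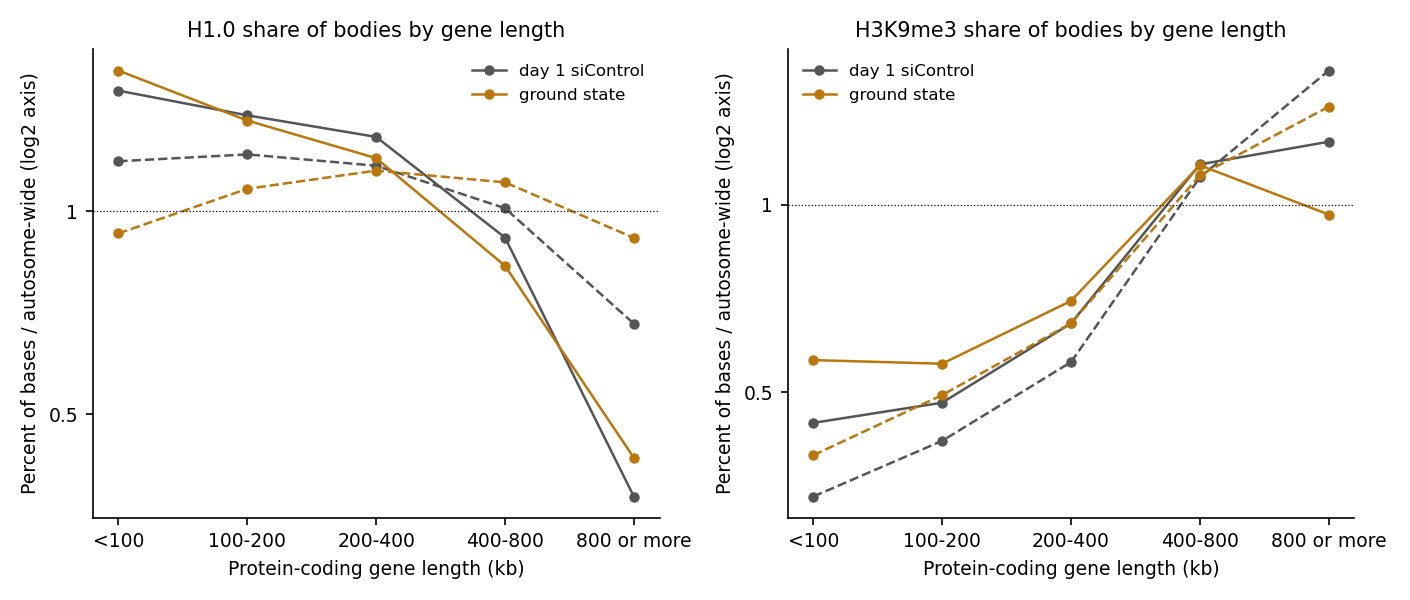
H1.0 (left) and H3K9me3 (right) shares of gene bodies relative to the autosome-wide share (log2 axis) in 5 classes of protein-coding gene length (x axis, kb), 1 line per list; solid lines are the first naming series and dashed lines the second. In genes of 800 kb or longer H1.0 lies between 0.377 and 0.913, and H3K9me3 between 0.964 and 1.64.

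In each list the share of H3K9me3 was higher in genes of 400 to 800 kb than in any shorter class. It was 0.964 to 1.64 of the autosomal level in genes of 800 kb or longer, against 1.11 to 1.16 in genes of 400 to 800 kb, 0.559 to 0.701 at 200 to 400 kb and 0.340 to 0.563 under 100 kb. H3K9me3 also lay over annotated starts of long genes: at day 1, 7.79% and 22.1% of the 77 members with a window had a start under it, against 2.54% and 6.44% of all genes and 5.67% and 12.4% of genes of 400 to 800 kb. In the ground state the shares were 3.90% and 26.0% of members, against 1.32% and 6.01% of all genes and 3.09% and 14.4% of genes of 400 to 800 kb.

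Between states, the relative share of H3K9me3 in long genes differed by a log2 value of 0.29 for day 1 minus ground state (exact permutation p = 0.667), and by 0.39 and 0.19 within the first and second naming series. With lists trimmed to the same covered length it was -0.24. Gene by gene, 9 of 97 members were higher in both day 1 lists (9.28%, against 7.02% of all genes and 6.77% of genes of 400 to 800 kb) and 12 were lower (12.4%, against 10.1% of all genes and 20.3% of genes of 400 to 800 kb). Those higher were led by the synaptic adhesion gene Nlgn1 (log2 difference 1.47), the netrin receptor gene Dcc (1.45), Robo2 (1.22), Grm8 (1.07) and Ctnna2 (1.05), and the others were Erbb4, Kcnip4, Il1rapl2 and Tenm3. Dcc was covered over 6.30% and 39.6% at day 1, against 0.777% and 17.4% in the ground state. Those lower were Auts2, Camta1, Ccser1, Celf2, Ctnnd2, Hdac9, Lrmda, Magi2, Prkg1, Sugct, Trpm3 and Wwox. Of these 12, Auts2, Magi2, Hdac9, Celf2 and Wwox were also among the 6 members with MEF2C above the autosomal level. Their log2 differences were -0.11, -0.53, -0.90, -0.57 and -0.46, and all but Auts2 had mean H3K9me3 shares below the autosomal level in both states. The share of members called lower was near that of all genes, and the overlap with MEF2C was not tested.

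MEF2C peaks of the day 1 siControl libraries were set against the marks in the same state. In siControl libraries 1 and 2, 5.00% and 2.51% of the MEF2C peaks of long genes had their midpoint under H3K9me3 of list 1, which covered 5.43% of member bases, and 11.9% and 5.38% under that of list 2, which covered 23.3%. Over the autosomes the shares were 2.24% and 2.19% under list 1, which covered 4.30% of bases, and 4.04% and 4.37% under list 2, which covered 14.2%. For H1.0 the share of peaks exceeded the share of bases in each pairing. In long genes 75.0% and 69.2% of the peaks lay under H1.0 of list 1, which covered 24.5% of member bases. Under that of list 2, which covered 0.433%, lay 6.88% and 1.43%. Over the autosomes 70.6% and 67.8% of MEF2C peaks lay under H1.0 of list 1, which covered 36.0% of bases. The autosomal shares under list 2, which covered 1.15% of bases, were 5.60% and 4.45%. The IgG samples were not analysed here.

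Members without MEF2C peaks were found at both high and low levels of H3K9me3. Of the 11 members with a mean H3K9me3 share more than 3 times the autosomal level, 1 (Etl4) had a MEF2C peak in all 8 libraries and 2 (Thsd7b and Dab1) had none. The members with no MEF2C peak included Pcdh9, Lingo2 and Adamtsl1, where H3K9me3 was nearly absent. Spearman's rho over the 98 members was -0.11 between H3K9me3 and MEF2C, and -0.01 between H1.0 and H3K9me3. By role, the 5 cadherins had the highest mean relative share of H3K9me3 (2.85), most of it in Cdh13, since Pcdh15 stood at 1.76, Cdh18 at 0.398, Cdh12 at 0.121 and Pcdh9 at 0.0130. They were followed by synaptic and neuronal adhesion (1.65), a list whose members ranged widely, with Sdk1 at 14.6 and Cadm2 at 0.0951. Second messenger signalling was the lowest (0.236).

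**Figure D5:**
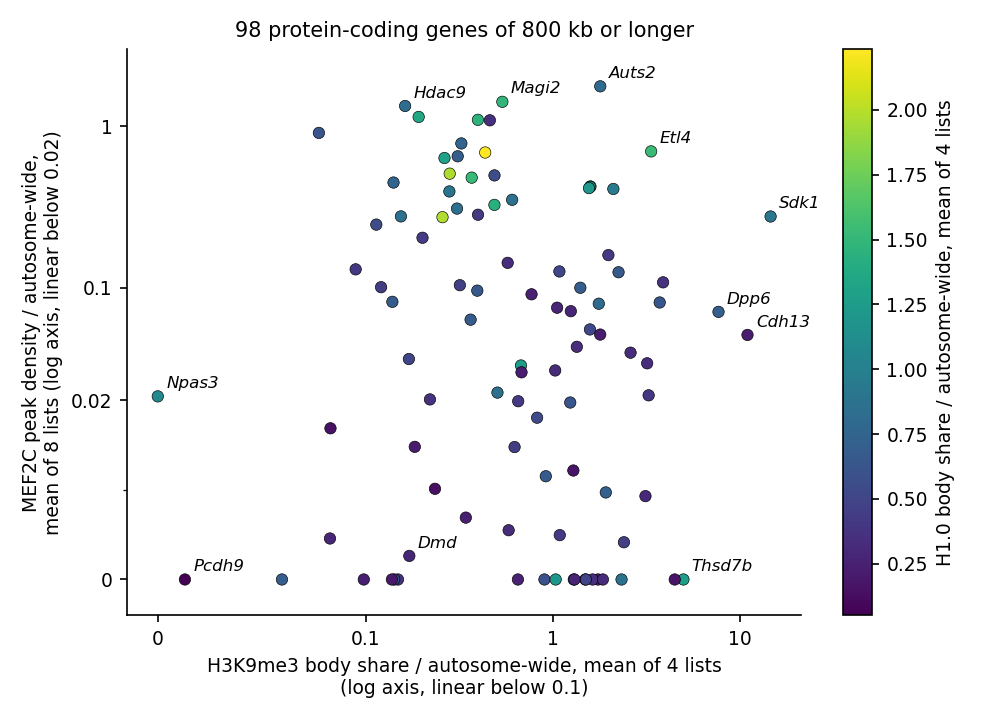
Mean MEF2C relative density over 8 lists (y axis, logarithmic above 0.02) against mean H3K9me3 relative share over 4 lists (x axis, logarithmic above 0.1) for the 98 long genes, coloured by mean H1.0 relative share. Sdk1, Cdh13 and Dpp6 lie at the far right, Auts2 and Magi2 at the top, and the members with no MEF2C peak lie along the bottom, at mean H3K9me3 shares up to 4.98.

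The threshold of 800 kb divides neighbours of similar length. Just above it were Camta1 (802 kb, mean relative density 0.508), Adgrl3 (809 kb, 0.0148) and Cacna2d3 (818 kb, 0). Just below it were Ptprn2 (792 kb, 0.177), Inpp4b (792 kb, 0.366) and Lrrtm4 (791 kb, 0.0382).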

How the data were processed

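CUT&RUN peak lists of 16 samples were used: MEF2C with siJunb (3), siH1f0 (3) and siControl (2), and H1.0 and H3K9me3 at day 1 with siControl and in the ground state (2 each). The 8 IgG samples were not analysed here. Reads were aligned with Bowtie2 to mm10 and peaks were called with SEACR, per the submitters' processing notes; their versions are not given in the sources used here. There is 1 list per sample, and the signal columns (total and maximum coverage of a peak) were deposited by the authors; signal was used here only to rank or trim peaks within a list. Per the labels each library had about 30 M reads, and the number of peaks limits the precision of every density.

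Members were the protein-coding genes of 800 kb or longer in RefSeq GRCm38.p6, the same assembly as mm10 for the chromosomes used. A peak was counted in a body when its midpoint lay there. The autosomes were taken from the first to the last annotated gene or peak of each chromosome, since no chromosome lengths were given, and they include the members. Overlapping bodies were merged for pooled values. Ratios were compared over libraries with 2-sided exact permutation tests (sign changes within libraries, or exchange of libraries between groups) in scipy 1.17.1 under Python 3.11.15, with Benjamini-Hochberg adjustment over 10 tests. The interval functions were tested on simulated data. With 3 against 2 libraries the smallest p is 0.2, with 2 against 2 it is 0.333, and with 4 lists it is 0.125.

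Single members were compared by whether the groups overlap, with log2 differences at a pseudocount of 0.1 on the relative scale. The labels number biological replicates and do not say whether they were separate cultures, so the p-values cover only the variation among these libraries, which may be technical. Same-numbered siJunb and siH1f0 libraries had correlations of 0.02, 0.19 and 0.03 in their deviations from the group means over 2427 genes, so the numbers were not taken as pairs. The gene lists, the members and the tests were chosen with earlier results of these data known, and the comparison of annotated starts and the division of Auts2 were added later.

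Genes are named by rules: the 10 highest and 10 lowest in MEF2C (19 members tie at 0, and all are named), the 5 highest and lowest in each mark, up to 5 per contrast whose groups do not overlap, the 3 on each side of the threshold, the 5 longest, those with a start bound in all 8 libraries, and the dystrophin list. Members of some small counts are also named, and Sdk1 and Auts2 were followed in detail after their values were seen. The role lists were kept as first written, which leaves Dlgap1, a scaffold of synapses, in none of them. Sequences come from RefSeq (GRCm38.p6). Exons, introns and sequences under peaks were not used here.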

Additional observations from a re-analysis of the deposited data

How the results depend on the processing

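Of 197 alternative values over 16 results, 175 kept their direction and side of the threshold or stayed within 1.5 times. The deficit of MEF2C in long genes kept its direction and its side of 0.05 in each alternative that could be computed (exact permutation p = 0.0156, the smallest for 7 libraries, where 1 was left out), with a mean log2 ratio of -2.45 to -2.33 when each library was left out in turn (-2.10 to -2.03 against genes of 400 to 800 kb). The median over members could give no MEF2C value, because it was 0 in some libraries. H3K9me3 against the autosomes turned to -0.19 with lists trimmed to the same covered length and to -0.65 with the median over members, and its day 1 difference turned to -0.24 with trimmed lists. The H1.0 day 1 difference ranged from -0.85 to 0.23 when lists were left out. Regions held by both siControl libraries and by no siJunb library numbered 7 when at least 50% of a region had to lie under peaks, 13 with the stronger part of each list, and 33 to 140 when libraries were left out. Those held by no siH1f0 library numbered 1, 0 and 3 to 49 under the same changes. These are counts alone, since shares of all regions are not given for them and the starting set changes where a siControl library is left out. MEF2C peaks within 2 kb of a gene end made up 7.06% of member peaks on average, against 12.4% within 5 kb. Members whose groups do not overlap were also counted in alternatives added after seeing the data. With the stronger part of each list, 12 members had siJunb below siControl (20.3%, against 6.54% of all genes and 18.8% of genes of 400 to 800 kb). The same part gave 9 for siH1f0 below siControl (17.6%, against 4.44% and 4.55%) and 8 for siJunb below siH1f0 (13.8%, against 5.56% and 16.3%). With libraries left out the counts were 23 to 30, 16 to 30 and 13 to 21, in that order. These were 33.3% to 41.7%, 23.5% to 45.5% and 17.6% to 27.3% of members. The shares of all genes were 11.1% to 23.7%, 7.89% to 26.1% and 8.09% to 14.8%. Those of genes of 400 to 800 kb were 25.7% to 39.2%, 15.1% to 35.6% and 19.1% to 32.9%. With the replicate number as a replicate block, the log2 differences were -0.39 for siJunb and -0.34 for siH1f0 against siControl, -0.28 between the knockdowns, -0.31 for H1.0 and 0.29 for H3K9me3, and no call changed. Leaving out Magi2 and Auts2, also added after seeing the data, changed no direction, and gave -0.75 for siJunb against siControl. The cause of these changes was not tested. With 102 to 356 peaks in long genes per list, single members hold few peaks, and their differences rest on small counts.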
